A study of Bos taurus with 48 samples.

Results

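Glutathione S-transferases were followed in subcutaneous adipose tissue of Norwegian Red heifers, and the 5 genes described were 5 of the 24616 gene rows of the count tables. They were the theta-class enzymes GSTT1 (ENSBTAG00000040298) and GSTT3 (ENSBTAG00000008587), the mu-class enzyme GSTM1 (ENSBTAG00000037673), and the membrane-bound MGST1 (ENSBTAG00000008541) and MGST3 (ENSBTAG00000010265). They were chosen by these identifiers. The study had listed all 5 as differentially expressed genes (DEG) between LPHE and LPLE heifers at 12 months, so that contrast is not independent evidence of a direction. All 5 passed the filter on low counts at both sampling times, with at least 115 reads on GSTT3 and at least 5494 on MGST3 in every sample.

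Biopsies were taken lateral to the tail base of 24 heifers at 12 months of age and again from the same heifers in month 7 of gestation, which gave 48 samples of polyA RNA. From calfhood until they were pregnant the heifers ate 1 of 4 diets, a high-energy (HE) or low-energy (LE) roughage with a low-protein (LP) or high-protein (HP) concentrate, named LPHE, LPLE, HPHE and HPLE. Each diet held 6 heifers, 3 of the high milk-yield (HMY) and 3 of the low clinical mastitis (LCM) genetic group of the university herd. During pregnancy all heifers had free access to the same low-energy feed, so HE and LE name the diet eaten before pregnancy. Breeding was set by body weight, and HE heifers became pregnant younger than LE heifers, so earlier diet and age in gestation cannot be told apart. Likewise, age, gestation and the change of feed cannot be told apart between the sampling times. The study fed HE roughage freely and LE roughage, which held straw, in restricted rations. HE roughage also held more crude protein, and HE heifers reached puberty at a younger age. At 12 months, energy, protein intake, restriction and pubertal stage thus cannot be told apart between HE and LE heifers.

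Glutathione S-transferases join the tripeptide glutathione to reactive, electrophilic compounds, among them aldehydes that arise when lipids are oxidised, and so make them less reactive and easier to export. The cytosolic enzymes fall into classes such as theta and mu, while MGST1 and MGST3 sit in membranes, belong to a different protein family and also reduce lipid hydroperoxides. Many of these genes are known targets of NRF2, a transcription factor that answers oxidative stress, and in fat cells their products handle by-products of lipid storage and turnover.

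Between 14815595 and 59809633 reads fell on genes per sample at 12 months (median 32166717) and between 22430093 and 61027456 in gestation (median 43293433). Levels are given as CPM, counts scaled to a common library size after TMM normalisation over all 48 samples. CPM is not divided by gene length, so levels were compared between samples and not between genes. Markers were matched by the symbols of the study's gene tables, which list mainly its DEG, so markers it did not call were mostly left out. Of 10 adipocyte markers only LEP and CIDEC were matched, and their summed level ran from 888 CPM to 3381 CPM over the 48 samples. The summed level of 7 of 13 skeletal muscle markers was above 50 CPM in 6 libraries, 4 of them of 12 months. No marker of leukocytes, endothelium or red blood cells had a symbol in those gene tables, so their levels were not followed. Results that changed without those 6 libraries are given with their values below.

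At 12 months the theta-class genes stood higher in the heifers fed high energy. GSTT1 ran from 64.1 CPM to 186 CPM in LPHE heifers (median 134) and from 33.0 CPM to 72.6 CPM in LPLE heifers (median 53.4). At high protein it ran from 67.5 CPM to 136 CPM with HPHE (median 108) and from 43.9 CPM to 104 CPM with HPLE (median 85.6). All but 1 of the LPHE heifers were above every LPLE heifer, while HPHE and HPLE heifers overlapped over most of their range. On the log2 scale LPHE exceeded LPLE by 1.29 (SE 0.245, FDR 0.000194), which is a 2.45-fold difference. The difference of HPHE over HPLE was 0.51 (SE 0.245, FDR 0.64) and did not pass the test.

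GSTT3 spread more widely between heifers than GSTT1. It ran from 52.0 CPM to 253 CPM in LPHE heifers (median 171) and from 25.5 CPM to 111 CPM in LPLE heifers (median 70.8). In HPHE heifers it ran from 56.8 CPM to 215 CPM (median 140) and in HPLE heifers from 51.7 CPM to 164 CPM (median 103). The groups overlapped at both protein levels, since the lowest HE heifer was below the median LE heifer in each. GSTT3 differed between LPHE and LPLE by a log2 fold change of 1.13 (SE 0.341, FDR 0.0322), and that of HPHE over HPLE was 0.42 (SE 0.343, FDR 0.824). The first of these lost its call without heifer 16 or heifer 18, where the FDR was at most 0.124, and with all 48 samples in the fit (FDR 0.151).

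GSTM1 was the gene whose HE and LE heifers were separated at both protein levels. It ran from 29.1 CPM to 64.6 CPM in LPHE heifers (median 38.3) and from 12.5 CPM to 27.5 CPM in LPLE heifers (median 21.8). At high protein it ran from 39.3 CPM to 63.8 CPM with HPHE (median 49.2) and from 17.3 CPM to 36.4 CPM with HPLE (median 25.1). No HE heifer was as low as any LE heifer of the same protein level, and the exact permutation test over 6 heifers against 6 gave the smallest p it allows, 0.00216 (two-sided, not adjusted), in both. Of the 20 such tests, over 5 genes, both protein levels and both sampling times, 10 gave an unadjusted p under 0.05. These 10 include, at 12 months, all 5 genes at low protein and GSTM1 at high protein. The study had listed the genes for those contrasts, so these tests are not independent evidence. The share of all genes with such a p is not given here. For differences called by the model, the exact permutation p ran up to 0.0519, that of GSTT3 at high protein in gestation, and it was 0.0411 for GSTT3 at low protein at 12 months and for GSTT1 at low protein in gestation. Such separation with HE higher was found in 0.984% of 13718 genes for LPHE and LPLE and in 0.321% for HPHE and HPLE.

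The fitted log2 fold change of GSTM1 was 1.02 (SE 0.223, FDR 0.00191) for LPHE over LPLE and 0.94 (SE 0.222, FDR 0.0334) for HPHE over HPLE. The study listed GSTM1 for both contrasts, so neither is independent evidence. The second call was lost with the quasi-likelihood F test (FDR 0.438) and without the libraries that held over 50 CPM of muscle markers (FDR 0.123, log2 fold change 0.99). It was also lost without heifer 1, 9, 13, 19 or 23, where the FDR reached 0.203 at most and the log2 fold change stayed between 0.83 and 0.91. Reads of the mu-class genes are uncertain in one respect, since 2 loci of the RefSeq table of the ARS-UCD2.0 assembly carry GSTM1 as a synonym and near-identical copies can share reads.

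The membrane-bound enzymes differed less. MGST1 ran from 899 CPM to 1929 CPM in LPHE heifers (median 1286) and from 414 CPM to 1600 CPM in LPLE heifers (median 673). At high protein it ran from 587 CPM to 1471 CPM with HPHE (median 1284) and from 816 CPM to 1250 CPM with HPLE (median 1020). The lowest value of all HE heifers, that of heifer 15, belonged to HPHE and lay below every HPLE heifer. The fitted log2 fold change of MGST1 was 0.78 (SE 0.265, FDR 0.0624) for LPHE over LPLE and 0.18 (SE 0.262, FDR 0.921) for HPHE over HPLE.

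MGST3 moved over a narrower range than MGST1. It ran from 473 CPM to 861 CPM in LPHE heifers (median 620) and from 269 CPM to 671 CPM in LPLE heifers (median 375). In HPHE heifers it ran from 328 CPM to 725 CPM (median 608) and in HPLE heifers from 386 CPM to 556 CPM (median 450). HE and LE heifers overlapped at both protein levels. Its log2 fold change was 0.62 (SE 0.22, FDR 0.0785) for LPHE over LPLE and 0.25 (SE 0.218, FDR 0.837) for HPHE over HPLE. Both membrane-bound genes sat close to the threshold for LPHE over LPLE. The call of MGST1 was lost with the quasi-likelihood F test (FDR 0.105) and with the 12 samples of the contrast alone (FDR 0.143), and that of MGST3 with those samples alone (FDR 0.139) and with library size in place of TMM (FDR 0.134). The call of MGST1 was also lost without heifer 3, 5, 8, 10, 14, 18 or 24 (FDR up to 0.189) and that of MGST3 without heifer 3, 5, 8, 10, 14, 16, 18, 22 or 24 (FDR up to 0.224).

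**Figure D1:**
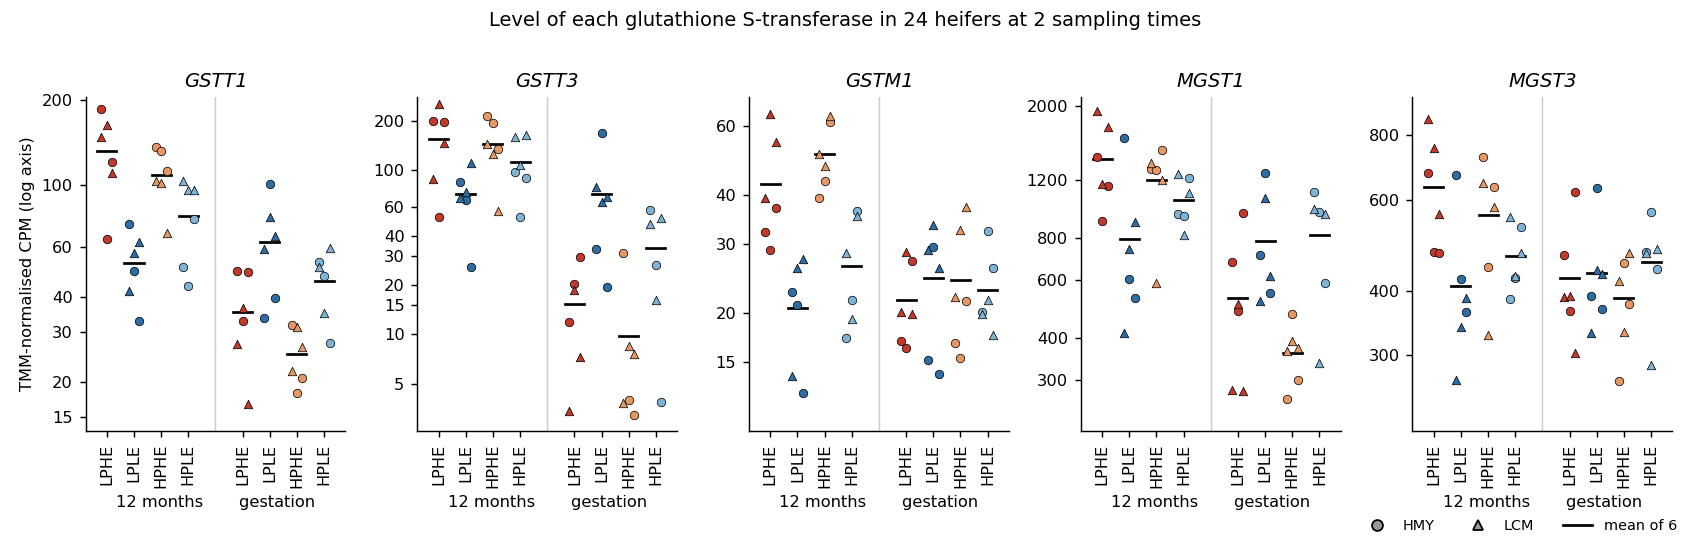
Level of each gene in TMM-normalised CPM on a log axis, by diet, at 12 months (left of each panel) and in month 7 of gestation (right), with 1 point per heifer, circles for HMY and triangles for LCM, and a bar at the mean of 6. The HE mean is above the LE mean of the same protein level in each panel at 12 months, while GSTT1, GSTT3 and MGST1 of HE heifers stand lowest in gestation.

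In all, 5 of the 5 genes were up-regulated in LPHE against LPLE heifers at 12 months, where 4.45% of 13339 genes were called in that direction, a count that follows from how the study had listed them. For HPHE against HPLE the count was 1 of 5, with 0.06% of genes called higher, and the quasi-likelihood F test called 0% of genes. Averaged over both protein levels and at the stricter FDR of 0.05 used for that contrast, GSTT1 (0.90, SE 0.173, FDR 6.35e-05), GSTM1 (0.98, SE 0.157, FDR 1.13e-06) and GSTT3 (0.77, SE 0.243, FDR 0.0274) were up-regulated in HE heifers, as were 4.69% of genes. MGST1 (0.48, FDR 0.0893) and MGST3 (0.44, FDR 0.0577) did not pass. Without the libraries of over 50 CPM of muscle markers MGST1 (FDR 0.00049) and MGST3 (FDR 0.000775) passed and GSTT3 (FDR 0.0675) did not. GSTT3 also missed the threshold with the quasi-likelihood F test (FDR 0.0734) and with all 48 samples (FDR 0.162), and MGST3 passed with DESeq2 (FDR 0.0324), with all 48 samples (FDR 0.0211) and with dispersions of estimateDisp (FDR 0.0462). GSTT3 also lost this call without heifer 1, 2, 3, 9, 11, 16, 18 or 20 (FDR up to 0.0838), while MGST1 gained it without heifer 4, 12 or 15 (FDR down to 0.00239) and MGST3 without heifer 4, 7, 12, 15 or 20 (FDR down to 0.0057). Whether the energy effect depended on protein was tested directly, and the difference between both energy contrasts was 0.78 (SE 0.345, FDR 1) for GSTT1 and between 0.08 and 0.78 for the 5 genes. None of these passed, where 0.105% of genes did, with 1 unadjusted p under 0.05, and neither the quasi-likelihood F test nor DESeq2 called any.

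Markers of the tissue moved with energy at 12 months as well. They were matched through the study's gene tables, which list mainly its DEG between LPHE and LPLE heifers. Their differences at 12 months are thus not independent evidence. The adipokine gene LEP was 1.37 higher in HE than in LE heifers on the log2 scale (SE 0.254, FDR 3.32e-05) and the lipid droplet gene CIDEC 0.54 higher (SE 0.162, FDR 0.0203). The fibroblast markers COL1A1, COL3A1 and DCN were lower in HE heifers, with log2 fold changes of -0.88, -0.60 and -0.57. Their summed level ran from 13524 CPM to 41547 CPM in LPHE and from 26581 CPM to 67883 CPM in LPLE heifers. The 7 muscle markers reached 72.2 CPM in LPLE, 150 CPM in HPHE heifers and 144 CPM in heifers fed HPLE. They reached at most 4.28 CPM in LPHE heifers. All 7 were called lower in LPHE than in LPLE heifers, where 2.63% of 13339 genes were. In bulk tissue, fewer cells of a type and less RNA per cell cannot be told apart, and the part of these markers in the differences of the 5 genes was not tested.

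In month 7 of gestation, 3 of the 5 genes stood the other way round, lower in the heifers that had eaten high energy before pregnancy. GSTT3 ran from 3.42 CPM to 29.7 CPM in LPHE heifers (median 15.3) and from 19.4 CPM to 169 CPM in LPLE heifers (median 66.4). At high protein it ran from 3.21 CPM to 31.5 CPM with HPHE (median 5.76) and from 3.87 CPM to 57.1 CPM with HPLE (median 36.8). A HPLE heifer at 3.87 CPM lay among the low HPHE heifers, and heifer 2 at 31.5 CPM lay far above the other HPHE heifers. In the fit, GSTT3 differed by -2.33 on the log2 scale for LPHE over LPLE (SE 0.571, FDR 0.0177) and -1.90 for HPHE over HPLE (SE 0.566, FDR 0.0883). Over both protein levels it was -2.12 (SE 0.405, FDR 5.35e-05), a 4.34-fold lower level in HE heifers.

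GSTT1 followed the same order with smaller steps. It ran from 16.7 CPM to 49.5 CPM in LPHE heifers (median 34.7) and from 33.8 CPM to 101 CPM in LPLE heifers (median 62.5). At high protein it ran from 18.3 CPM to 31.8 CPM with HPHE (median 24.2) and from 27.4 CPM to 59.7 CPM with HPLE (median 49.3). HE and LE heifers overlapped at both protein levels, although every HE median was below the LE median. In the fit, GSTT1 differed by -0.84 on the log2 scale for LPHE over LPLE (SE 0.255, FDR 0.0944), -0.88 for HPHE over HPLE (SE 0.254, FDR 0.071) and -0.86 over both (SE 0.18, FDR 0.000353).

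MGST1 was lower in HE heifers as well. It ran from 278 CPM to 951 CPM in LPHE heifers (median 494) and from 516 CPM to 1255 CPM in LPLE heifers (median 663). At high protein it ran from 263 CPM to 475 CPM with HPHE (median 370) and from 337 CPM to 1100 CPM with HPLE (median 953). Apart from 1 HPLE heifer at 337 CPM, all HPLE heifers lay above all HPHE heifers. In the fit, MGST1 differed by -0.62 on the log2 scale for LPHE over LPLE (SE 0.278, FDR 0.414), -1.17 for HPHE over HPLE (SE 0.28, FDR 0.0112) and -0.89 over both (SE 0.197, FDR 0.000785).

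The other two genes had no energy difference that could be detected in gestation. GSTM1 ran from 14.03 CPM to 37.4 CPM over the 24 samples of gestation, and the medians of the diets lay between 20.04 CPM and 27.5 CPM. Its log2 fold change of HE over LE was -0.08, with a 95% interval from -0.40 to 0.24 and an FDR of 0.865. MGST3 ran from 268 CPM to 633 CPM, and its log2 fold change was -0.13 with an interval from -0.40 to 0.13 (FDR 0.683). The intervals leave out the differences of 0.98 and 0.44 that these genes had at 12 months. Those had 95% intervals of their own, from 0.67 to 1.29 for GSTM1 and from 0.14 to 0.74 for MGST3. The value of MGST3 had not passed (FDR 0.0577), and the study had listed both genes on samples of 12 months. The change between the sampling times is tested directly below.

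For the mean of both protein levels, 3 of 5 genes were down-regulated in gestation at an FDR of 0.05, where 2.66% of 13403 genes were called lower. These 3 calls held in each of the 11 other settings tried and without each heifer in turn. The contrasts of single protein levels were less firm. By the likelihood ratio test 2 of 5 genes were called lower in LPHE than in LPLE heifers (0.739% of genes) and 3 of 5 in HPHE than in HPLE heifers (0.783% of genes), whereas the quasi-likelihood F test called 0% of all genes in either contrast and gave these 5 genes an FDR of 0.159 at best. DESeq2 called 2 of 5 in each, without GSTT3 in HPHE against HPLE (FDR 0.143). At an unadjusted p under 0.05 the likelihood ratio test counted 3 of 5 in each. The difference between both energy contrasts was called for 0 of 5 genes in gestation by each tool (0.00746% of genes, no unadjusted p under 0.05). The call of GSTT1 in LPHE against LPLE ended without heifer 5, 7, 8, 9, 10, 12, 14, 16, 22, 23 or 24 (FDR up to 0.468) and that of GSTT3 without heifer 10 (FDR 0.234). In HPHE against HPLE the call of GSTT1 ended without heifer 1, 6, 7, 9, 11, 19, 21 or 23 (FDR up to 0.302) and that of GSTT3 without heifer 1, 6, 7, 9, 11, 12, 14, 15, 19, 21, 22 or 23 (FDR up to 0.31). Heifer 7 of HPLE had the lowest share of reads on genes in the series (39.0%), and without its library GSTT3 differed by -1.73 (FDR 0.307) and GSTT1 by -0.84 (FDR 0.259) in that contrast. LEP, CIDEC, COL1A1, COL3A1 and DCN had no called difference between HE and LE heifers in gestation, with log2 fold changes between -0.25 and 0.20.

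**Figure D2:**
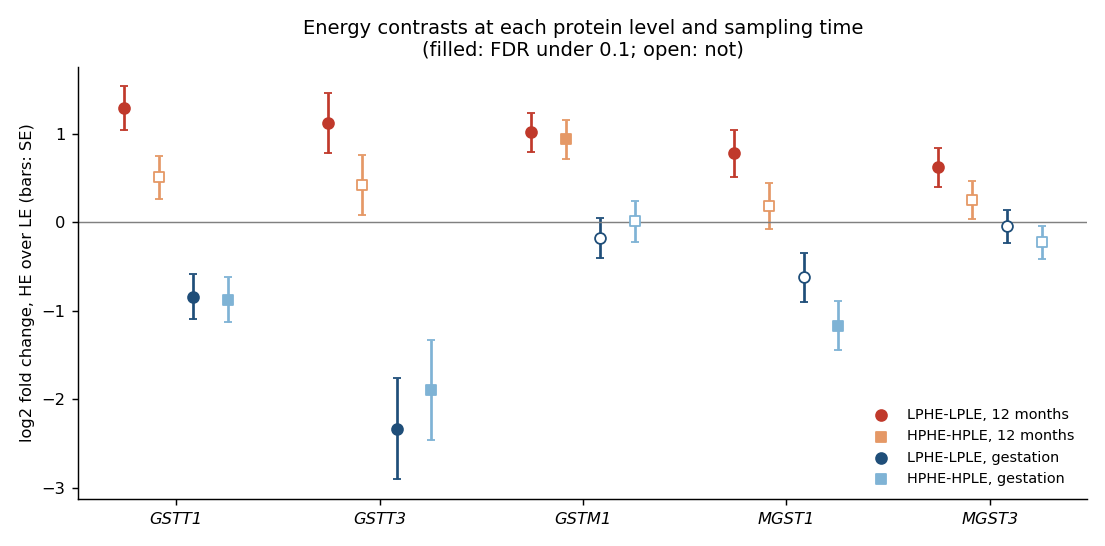
Log2 fold change of HE over LE heifers (vertical axis, bars are the SE) for each gene, at low protein (circles) and high protein (squares), at 12 months (red and orange) and in gestation (dark and light blue), filled where the FDR was under 0.1. All 10 values of 12 months lie above 0, and GSTT1, GSTT3 and MGST1 lie below 0 in gestation at both protein levels, down to -2.33.

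Because the energy contrasts of both sampling times use the same heifers, the change between them was tested directly, as the HE-LE difference in gestation minus that at 12 months in a model of all 48 samples. It was -1.75 on the log2 scale for GSTT1 (SE 0.256, FDR 8.4e-09), -2.77 for GSTT3 (SE 0.498, FDR 3.47e-06) and -1.38 for MGST1 (SE 0.28, FDR 5.04e-05). It was -1.06 for GSTM1 (SE 0.224, FDR 0.000104) and -0.58 for MGST3 (SE 0.202, FDR 0.0313). So 5 of 5 genes were called lower, where 12% of 13718 genes were, and the median of all genes was 0.06. Tissue markers moved in the same contrast, with LEP (-1.57, FDR 0.000546) and CIDEC (-0.70, FDR 0.0116) called lower. The fibroblast markers were called higher in 3 of 3 cases (median 0.75), as were 3 of 7 muscle markers, MYH7, MYLPF and TNNI2 (2.28, 3.93 and 1.56). Of all genes, 56.4% had a log2 fold change above 0 in this contrast, and the share called higher is not given here. The part of these markers in the change of the 5 genes was not tested. The 12-month samples of this difference are those on which the study had listed the genes, so the count is not independent of that list. The same holds for the markers, which were matched through the study's gene tables. With the heifer as a block the values were between -2.82 and -0.58 and all 5 calls held, as they did in the other settings tried.

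The same change was followed in each heifer. GSTT3 was lower in gestation in 12 of 12 HE heifers, with a mean change of -3.42 ± 1.19 on the log2 scale in LPHE (SD, n = 6) and -4.19 ± 1.22 in HPHE. In LPLE heifers the mean change was -0.18 ± 0.91, with 4 of 6 heifers lower, and in HPLE heifers it was -2.04 ± 1.33, with 6 of 6 lower. The median ratio of the level in gestation to that at 12 months was 0.0681 in LPHE and 0.0458 in HPHE, against 0.816 in LPLE and 0.304 in HPLE.

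GSTT1 was lower in gestation in all 12 HE heifers and in 5 of 12 LE heifers. Its mean change was -1.90 ± 0.66 in LPHE, -2.09 ± 0.53 in HPHE, 0.19 ± 0.71 in LPLE and -0.73 ± 0.70 in HPLE. GSTM1 was also lower in 12 of 12 HE heifers and 5 of 12 LE heifers, with mean changes of -0.95 ± 0.33 in LPHE and -1.11 ± 0.38 in HPHE. In LPLE and HPLE heifers GSTM1 changed by 0.23 ± 0.54 and -0.17 ± 0.58. No HE heifer rose in either gene, whereas the LE heifers lay on both sides of no change.

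MGST1 was lower in 12 of 12 HE heifers and in 6 of 12 LE heifers, with mean changes of -1.48 ± 1.01 in LPHE and -1.69 ± 0.64 in HPHE. MGST3 had the smallest changes, -0.58 ± 0.56 in LPHE and -0.51 ± 0.56 in HPHE, and was lower in 9 of 12 HE and 4 of 12 LE heifers. A level lower in all 12 HE heifers was found in 10.7% of 13718 genes, and in 4 of the 5 genes described. The study had listed the genes on 12-month samples that include the LPHE heifers, and GSTM1 also on those of HPHE heifers. Changes per heifer and this count are thus not independent of that list.

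In the model of all samples, averaged over diets, 5 of 5 genes were down-regulated in gestation, from -2.26 for GSTT3 to -0.27 for MGST3, where 22.6% of genes were called lower. Of the tissue markers, LEP was higher in gestation in that contrast (0.54, FDR 0.0123), as was DCN (0.41, FDR 0.00132), while CIDEC (-0.30, FDR 0.0149) and the muscle gene MYH2 (-2.95, FDR 0.00325) were lower, and their part was not tested. Each of the 5 genes was also down-regulated in LPHE heifers and in HPHE heifers, where 16% and 15.9% of genes were called lower. The study had listed the 5 genes as higher in LPHE than in LPLE heifers on the earlier of these samples. Their changes over all diets, in LPHE and in LPLE heifers are thus not independent of that list. The study listed GSTM1 for HPHE over HPLE as well, so its changes in those diets are not independent either. The shares of all genes, which were not chosen in this way, are not a like comparison for the 5 genes. MGST3 lost the call over all diets (-0.18, FDR 0.14) and in HPHE (-0.39, FDR 0.126) with library size in place of TMM. The log2 fold change ran from -3.38 (GSTT3, FDR 3.17e-08) to -0.60 (MGST3, FDR 0.0182) in LPHE and from -3.90 (GSTT3, FDR 2.48e-10) to -0.53 (MGST3, FDR 0.0407) in HPHE. In LPLE heifers none was called by the likelihood ratio test, the quasi-likelihood F test or DESeq2, with no unadjusted p under 0.05 and log2 fold changes between -0.02 and 0.24, where 0.262% of genes were called lower. In HPLE heifers GSTT3 alone was called (-1.75, SE 0.504, FDR 0.0375), where 1.05% of genes were. With the replicate block of the heifer, GSTT1 was called there too (-0.74, FDR 0.0528 against 0.11 without the block), and GSTT3 had -2.01 (FDR 0.000466), in a fit that called 5.37% of genes. The quasi-likelihood F test did not call GSTT3 there (FDR 0.111). Fewer genes moved at all in LE heifers, with 0.598% of genes called in LPLE and 2.62% in HPLE in either direction against 29.8% in LPHE and 32.4% in HPHE.

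**Figure D3:**
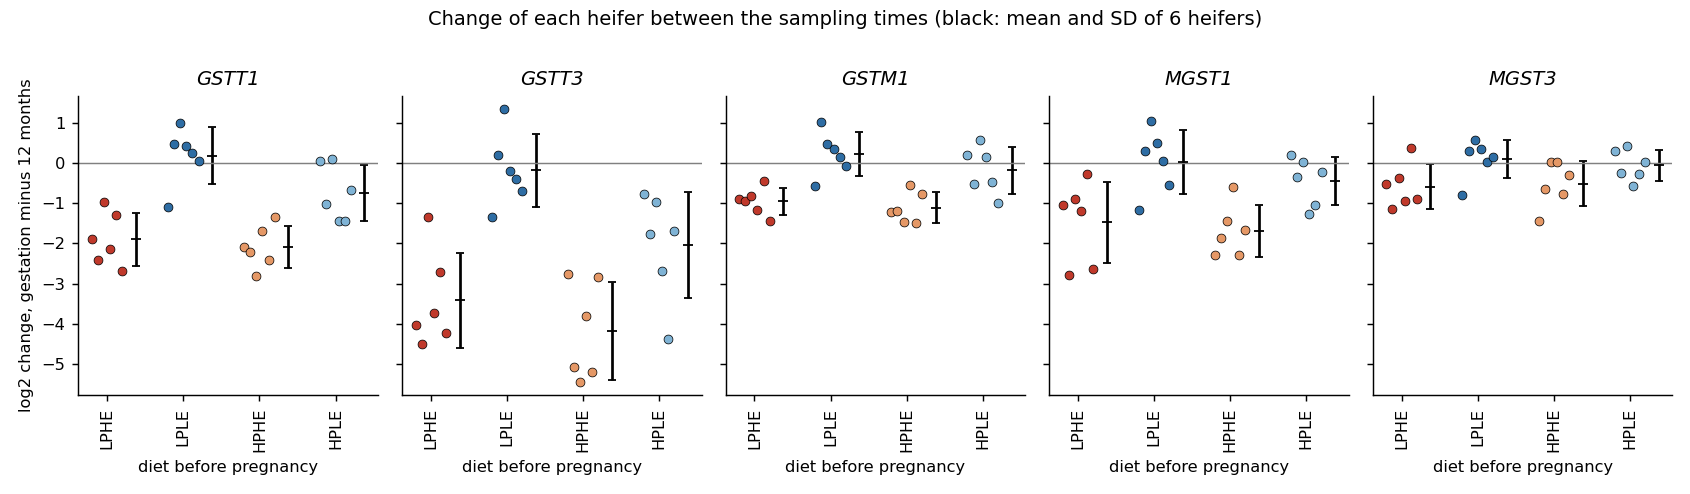
Log2 change of each heifer from 12 months to gestation (vertical axis) by the diet eaten before pregnancy, 1 point per heifer, with the mean and SD of 6 in black. All HE heifers lie below 0 for GSTT1, GSTT3, GSTM1 and MGST1, and GSTT3 reaches -5.45 in HPHE heifers.

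Ordered by mean level, LPHE and HPHE at 12 months held the first 2 places of the 8 groups of diet and sampling time for each gene. For GSTT1, GSTT3 and MGST1 the last 2 places were held by LPHE and HPHE in gestation, at 35.3 ± 12.8 CPM and 25.04 ± 5.70 CPM for GSTT1 (SD, n = 6), 15.2 ± 9.59 CPM and 9.74 ± 10.9 CPM for GSTT3, and 529 ± 256 CPM and 362 ± 74.3 CPM for MGST1. Neighbouring groups in these orders overlapped in range in each case. The step between neighbours was above the larger SD of the pair in 1 of 7 steps for GSTT1 (HPHE to HPLE at 12 months), 1 of 7 for GSTT3 (LPLE at 12 months to HPLE in gestation), 1 of 7 for GSTM1 (LPHE to HPLE at 12 months) and 0 of 7 for MGST1 and MGST3. The SD of GSTT3 in HPHE heifers in gestation rests on heifer 2 at 31.5 CPM, since the other 5 heifers lay between 3.21 CPM and 8.47 CPM.

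Protein level and genetic group left no called difference in these genes. Over both energy levels, HP-LP log2 fold changes ran from 0.01 to 0.33 at 12 months and from -0.86 to 0.04 in gestation. The likelihood ratio test, the quasi-likelihood F test and DESeq2 called 0 of 5 genes at each time, with 0.06% and 0.0895% of genes called in either direction by the first. At an unadjusted p under 0.05 the count was 1 of 5 at 12 months (GSTM1, 0.33, SE 0.156) and 2 of 5 in gestation (GSTT1, -0.48, SE 0.179, and GSTT3, -0.86, SE 0.386). Single protein contrasts gave the same picture, with the count of 0 by each tool and at most 1 unadjusted p under 0.05, for GSTT1 in HPLE over LPLE at 12 months (0.53, SE 0.243) and for GSTT3 in HPLE over LPLE in gestation (-1.08, SE 0.548). They were called in 0.0225% of genes for each protein contrast at 12 months, and in 0.00746% for HPHE-LPHE and 0.0746% for HPLE-LPLE in gestation.

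Between the genetic groups, GSTM1 had 31.2 ± 13.5 CPM in HMY and 39.3 ± 16.98 CPM in LCM heifers at 12 months (SD, n = 12) and 20.96 ± 6.31 CPM and 25.7 ± 6.46 CPM in gestation. The HMY-LCM log2 fold change of GSTM1 was -0.32 (95% interval from -0.63 to -0.02, FDR 0.512) and -0.29 (from -0.61 to 0.03, FDR 0.823). Those of the other 4 genes lay between -0.20 and 0.06 at 12 months and between 0.03 and 0.43 in gestation. No gene was called at either time by any of the 3 tools, where the likelihood ratio test called 0.03% and 0.179% of genes in either direction. The unadjusted p was under 0.05 for GSTM1 at 12 months only. Since each diet held 3 heifers of each group, the genetic groups were compared with diet in the model.

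The genes were then compared among themselves, as deviations of each heifer from the mean of its diet on the scale of log2(CPM + 0.5), so that diet did not enter. The theta-class genes varied together, with a Pearson r of 0.84 at 12 months (Spearman rho 0.77) and 0.79 in gestation (rho 0.78) over 24 heifers. Permutation tests gave p = 1e-05, the smallest they can give, and p = 2e-05 (adjusted over 20 relations 6.67e-05 and 0.0001), and for rho p = 2e-05 at both times. Without the 2 heifers farthest from the median of GSTT1, r was 0.75 and 0.84. In the RefSeq table of the ARS-UCD2.0 assembly GSTT1 and the gene with the synonym GSTT3 are direct neighbours, and they are relatives in sequence class, so shared reads cannot be told apart from common variation in these counts.

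The membrane-bound pair also varied together. The r of MGST1 and MGST3 was 0.81 at 12 months (rho 0.65) and 0.84 in gestation (rho 0.81), with p = 1e-05 for r at both times (adjusted 6.67e-05), and p = 0.0008 and 1e-05 for rho. It was 0.66 and 0.75 without the 2 heifers farthest from the median of MGST1. Pairs across classes were weaker, from 0.17 for GSTT3 and GSTM1 to 0.66 for GSTT1 and MGST1, both in gestation. The latter had permutation p values of 0.00055 for r and 0.00029 for rho (rho 0.70, r without 2 heifers 0.66, adjusted p = 0.0022 for r). These relations rest on samples that also share library, depth and the makeup of the biopsy, whose part was not tested.

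**Figure D4:**
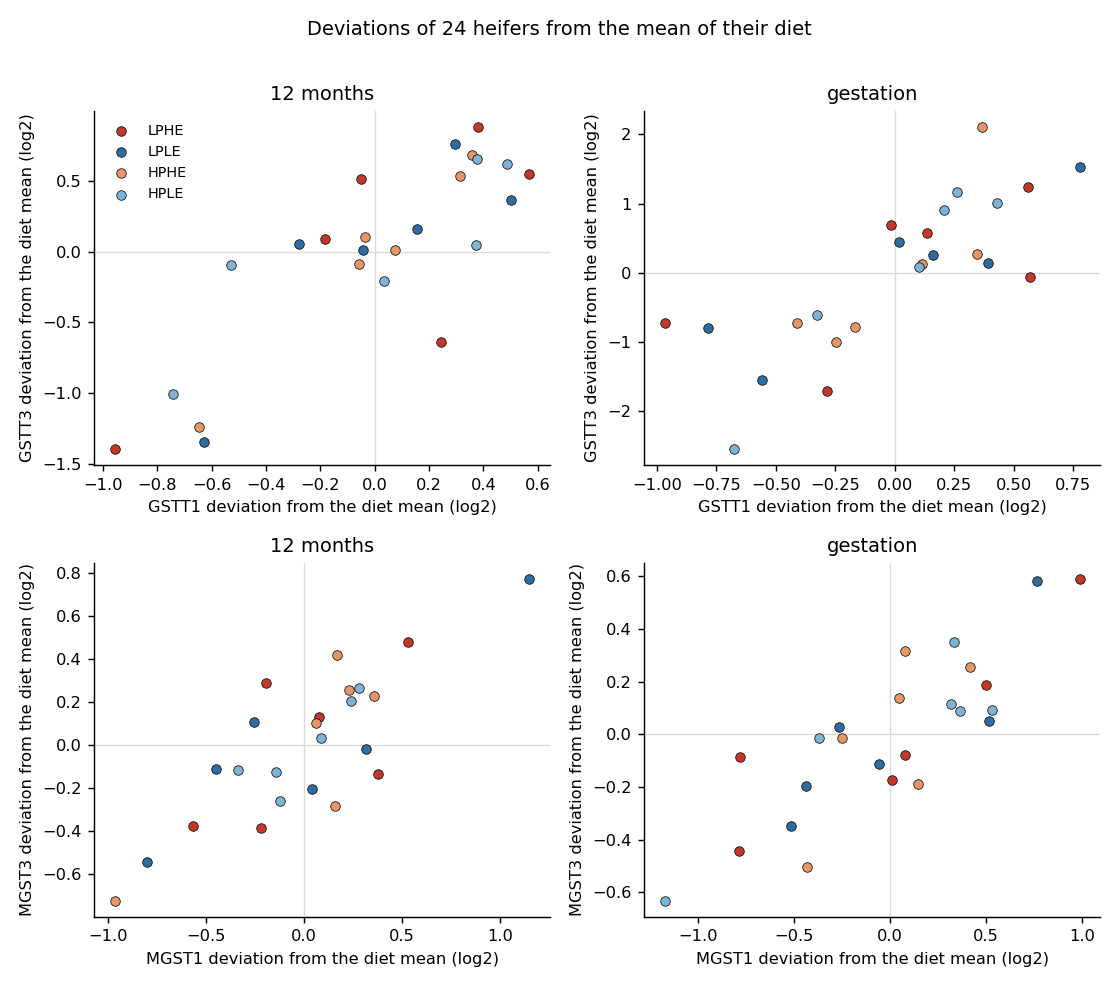
Deviation of each of 24 heifers from the mean of its diet on the log2 scale, GSTT3 against GSTT1 (upper row) and MGST3 against MGST1 (lower row), at 12 months (left) and in gestation (right), coloured by diet. Points rise from lower left to upper right in each panel, with r between 0.79 and 0.84.

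Whether a heifer that was high for its diet at 12 months was also high in gestation was tested next, and no correlation passed. The correlation of the deviations at both times was 0.07 for GSTT1 (permutation p = 0.761), 0.32 for GSTT3 (p = 0.122), 0.37 for GSTM1 (p = 0.0758), -0.10 for MGST1 (p = 0.656) and -0.01 for MGST3 (p = 0.964), over 24 heifers, and the lowest adjusted p of the 5 was 0.304. Spearman rho was 0.13, 0.34, 0.32, -0.22 and -0.03 in the same order (permutation p = 0.548, 0.11, 0.129, 0.304 and 0.879). Without the 2 heifers farthest from the median at 12 months r was 0.10, 0.34, 0.21, -0.08 and -0.04. Over 13718 genes the median r was 0.29, and the share of genes with an r at or above that of the member was 82.0% for GSTT1, 45.2% for GSTT3, 37.5% for GSTM1, 93.9% for MGST1 and 88.7% for MGST3.

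Genes that varied most like each member, apart from diet, were ranked by the mean of r at 12 months and r in gestation over 24 heifers each, among 13134 genes, of which 999 had a symbol. Symbols came from the study's gene tables, which list mainly its DEG, so the kinds of genes named below follow in part from that pool. These are descriptions with no test. Of genes with a symbol, GSTT1 was most like GSTT3 (mean r 0.81), NDUFV1 (0.78), a subunit of mitochondrial complex I, and DDT (0.76), D-dopachrome tautomerase, which follows the theta-class genes directly on the chromosome in the RefSeq table. GSTT3 was most like GSTT1 and TDH (0.72), an L-threonine dehydrogenase. GSTM1 was most like IMMP2L (0.72), a mitochondrial inner membrane peptidase, PRDX6 (0.70), a peroxiredoxin that can use glutathione, and SDHC (0.69), a subunit of complex II. MGST1 was most like HSD17B12 (0.86), which acts in the elongation of fatty acids, ATP5G3 (0.84), part of the ATP synthase, and ISOC1 (0.83), and MGST3 was most like MGST1 (0.82), MTX1 (0.78) and CYSTM1 (0.77).

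Other genes that make, recycle or use glutathione were taken from lists of 75 genes in 8 groups, of which 18 had an identifier and all 18 passed the filter. Identifiers came from the gene tables of the study, so nearly all 18 were genes the study had picked in LPHE against LPLE heifers, and their counts at 12 months are not independent evidence. At 12 months 15 of 18 were called higher and 2 lower in LPHE than in LPLE heifers, where 4.45% of all genes were called higher and 2.63% lower, with a median log2 fold change of 0.78 against -0.02 over all genes. For HPHE against HPLE the likelihood ratio test called none, with 9 of 18 at an unadjusted p under 0.05 and a median of 0.35, and the quasi-likelihood F test called 0% of all genes. In gestation 6 of 18 were called lower and none higher in HE than in LE heifers at an FDR of 0.05, where 2.66% of all genes were called lower. Of the 18 log2 fold changes 17 were below 0, with a median of -0.37 against 0.01 over all genes, of which 53.1% were above 0. The group had no test of its own.

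NADPH keeps glutathione reduced, and its suppliers PGD, ME1 and IDH1 were each up-regulated in HE heifers at 12 months. The HE-LE log2 fold change of PGD, an enzyme of the pentose phosphate pathway, was 0.88 at 12 months (SE 0.169, FDR 6.32e-05) and -0.59 in gestation (SE 0.135, FDR 0.0013). ME1, malic enzyme, had 1.46 at 12 months (FDR 1.44e-06) and -0.70 in gestation, the second of which did not pass (FDR 0.0829). IDH1, a cytosolic isocitrate dehydrogenase, had 0.54 (FDR 0.0234) and -0.47 (FDR 0.0625). Each of these genes was called lower in the change of the HE-LE difference between sampling times, where 12% of 13718 genes were. The values were -1.47 for PGD, -2.15 for ME1 and -1.01 for IDH1.

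In glutathione synthesis GSS, glutathione synthetase, had an HE-LE log2 fold change of 0.87 at 12 months (FDR 0.00219) and -0.65 in gestation (FDR 0.00338). GCLC, the catalytic subunit of the rate-limiting enzyme, had 0.59 (FDR 0.000933) and -0.05 (FDR 0.913). Among glutaredoxins and glyoxalases, HAGH, which frees glutathione from its lactoyl conjugate, had 0.56 at 12 months (FDR 0.0184) and -0.71 in gestation (FDR 2.08e-05), and GLRX2 had 0.41 (FDR 0.0454) and -0.34 (FDR 0.0754). GLRX, glutaredoxin, had 0.34 at 12 months (FDR 0.0512) and -0.09 in gestation (FDR 0.749). It was called in LPHE against LPLE heifers at 12 months (0.48, FDR 0.0732). LAP3, a peptidase of the breakdown list, had 0.39 at 12 months (FDR 0.0514) and -0.16 in gestation.

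Of the NRF2 targets, NQO1, a quinone reductase, had 1.07 at 12 months (FDR 1.44e-06) and -0.22 in gestation (FDR 0.413). SRXN1, which repairs peroxiredoxins, had 1.20 and -0.56, and PRDX1 had 0.64 and -0.40, all 4 values called. SQSTM1, a receptor of selective autophagy, had 0.60 (FDR 0.0093) and -0.10 (FDR 0.679). All 4 of these genes were called lower in gestation over all diets (median -0.65), where 22.6% of 13718 genes were.

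Not all related genes had the same sign. PTGES, a prostaglandin E synthase of the same membrane family as MGST1 and MGST3, was down-regulated in HE heifers at 12 months, with -0.65 (SE 0.203, FDR 0.0274), and had 0.33 in gestation (FDR 0.455). Its level rose between the sampling times by 0.63 (SE 0.164, FDR 0.00081) while the 5 transferases fell. GPX7, a glutathione peroxidase of the endoplasmic reticulum, had -0.51 at 12 months (FDR 0.0101) and -0.08 in gestation. ENSBTAG00000017765, listed by the study as a further mu-class transferase, had 0.42 at 12 months (FDR 0.0734) and -0.41 in gestation (FDR 0.162). The HE-LE difference of this gene changed by -0.82 between sampling times (SE 0.233, FDR 0.00652). So both mu-class genes were called lower in that change, where 12% of 13718 genes were.

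**Figure D5:**
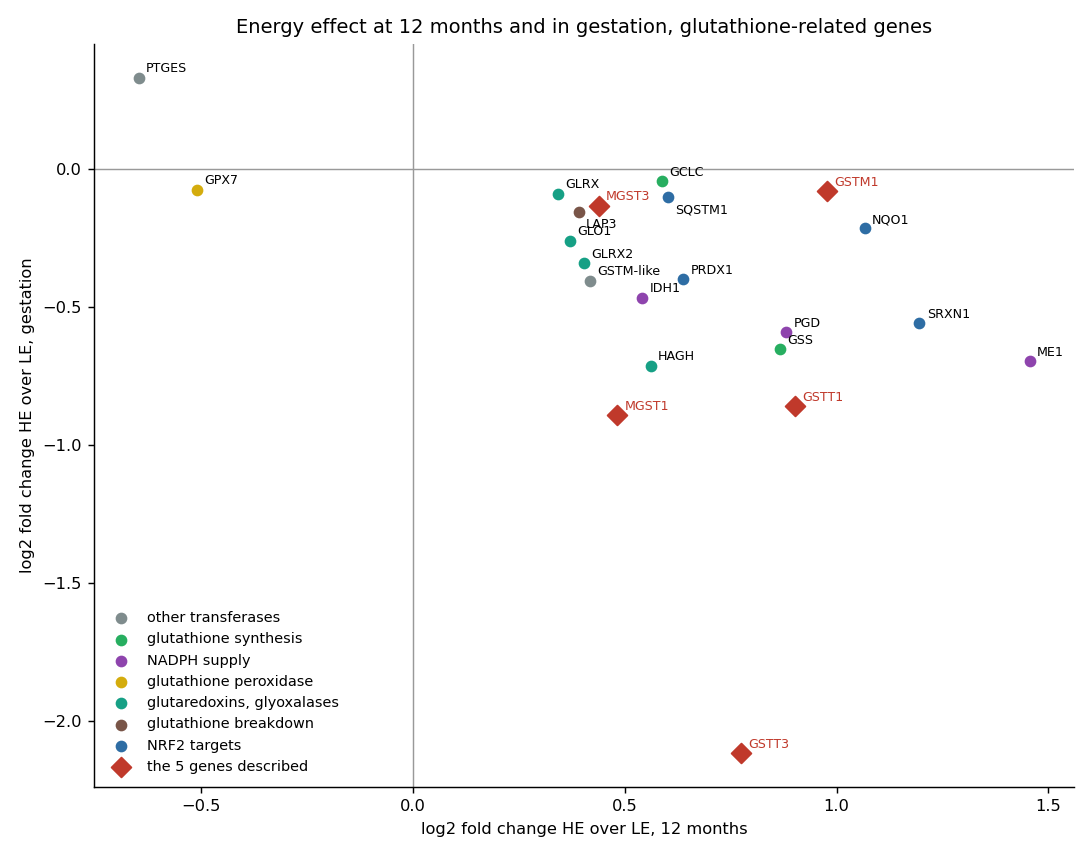
Log2 fold change of HE over LE heifers at 12 months (horizontal axis) and in gestation (vertical axis), each averaged over both protein levels, for the 5 transferases (red diamonds) and 17 of the 18 other glutathione-related genes (points, coloured by list, with ENSBTAG00000017765 written as GSTM-like). Most points lie in the lower right, higher in HE heifers at 12 months and below 0 in gestation, and PTGES lies in the upper left.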

How the data were processed

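Polyadenylated RNA of 48 adipose biopsies was sequenced. Per the study's methods and the labels, the authors used Cutadapt (1.3) for trimming, Tophat (2.0.12) for alignment to the bovine genome UMD3.1, and HTSeq-count for assignment to Ensembl genes. Its strand setting is not given in the sources used here. The deposited values are raw counts. Summary rows of the counting tool, 38.8 to 61.0% of a table, were left out.

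Genes reaching 2 CPM in 3 or more samples were kept and TMM-normalised. Models of diet and genetic group (within a time) or diet by time and genetic group (48 samples) were fitted with glmFit of edgeR (4.0.16), with tagwise dispersions and likelihood ratio tests. FDR values are Benjamini-Hochberg adjusted over all genes, with DEG at 0.1, or 0.05 for HE-LE overall. SEs were derived as |log2 fold change| over the root of the likelihood ratio statistic. Alternatives included edgeR's quasi-likelihood F test and DESeq2 (1.42.0). Correlations used 100000 resamples, and exact permutation tests were run for 20 HE-LE comparisons. The fits were tested on simulated data.

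The heifer pairs the sampling times. Deviations from the diet mean, correlated over genes, gave an r above 0.1 for 20 of 24 pairs of samples (median 0.30, lowest -0.056). The best match was the sample of the same heifer in 15 of 24 cases. All 120 pairs of samples within groups differed beyond counting noise, with a chi-square of at least 40.2 per degree of freedom. Members and lists were chosen with earlier results of these data known. Genes named are the 5 members, at most 4 per list among those called at 12 months, other transferases with an identifier, and the 3 genes with a symbol most like each member. Some named genes under this rule are not reported here. Symbols came from the study's gene tables, and gene neighbours from the RefSeq table of ARS-UCD2.0, whose coordinates were not used. Sequences were not used here.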

Additional observations from a re-analysis of the deposited data

Results flagged for a closer look

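In 40 groups of 6 samples, 3 had a heifer far from the others, near the 1 in 20 groups that chance gives. GSTT3 of heifer 2 was 31.5 CPM, the highest of HPHE in gestation. MGST1 of heifer 15 was 587 CPM, the lowest of HPHE at 12 months. MGST3 of heifer 10 was 633 CPM, the highest of LPLE in gestation.

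The HE-LE difference changed between the sampling times for each of the 5 genes, by -1.75 for GSTT1, -2.77 for GSTT3, -1.06 for GSTM1, -1.38 for MGST1 and -0.58 for MGST3 on the log2 scale (FDR of edgeR's likelihood ratio test from 8.4e-09 to 0.0313). Of all genes, 12.0% were called in that direction. The study had listed the 5 genes on 12-month samples that enter this difference, so that share is not a like comparison.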

How the results depend on the processing

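Of the 5 genes, 5 were called for LPHE-LPLE at 12 months, and 3 with the 12 samples of the contrast alone or at an FDR of 0.05. For HPHE-HPLE at 12 months 1 was called, and 0 with the quasi-likelihood F test or without the libraries with over 50 CPM of muscle markers (chosen after seeing the data). For HE-LE overall at 12 months 3 were called, and 5 at an FDR of 0.1. For LPHE-LPLE in gestation 2 were called, 0 with the quasi-likelihood F test, and 1 with library size in place of TMM, no filter, no genetic group, all 48 samples, an FDR of 0.05, or, chosen after seeing the data, dispersions of estimateDisp or without the library of lowest share of reads on genes. For HPHE-HPLE in gestation 3 were called, 0 with the quasi-likelihood F test, and 1 at an FDR of 0.05, with estimateDisp or without that library. In that contrast 2 were called with DESeq2, library size, no filter or no genetic group, each without GSTT3 (FDR 0.143, 0.107, 0.107 and 0.128), and with all 48 samples, without GSTT1 (FDR 0.112). For gestation against 12 months in HPLE 1 was called, 0 with the quasi-likelihood F test and 2 with the replicate block of the heifer, which changed no other call. Leaving out 1 heifer gave 2 to 5 for LPHE-LPLE, 0 to 1 for HPHE-HPLE and 2 to 5 for HE-LE overall at 12 months, and 0 to 2 and 1 to 3 for LPHE-LPLE and HPHE-HPLE in gestation. Values that changed sign were uncalled in each case. HMY-LCM at 12 months was 0.12 for GSTT3 with all 48 samples, and -0.18 for MGST1 and -0.061 for MGST3 without the muscle-marker libraries. In gestation MGST3 in LPHE-LPLE was 0.017 with library size, GSTM1 in HPHE-HPLE was -0.065 without the library of lowest share, and GSTT1 in HMY-LCM was -0.054 with all 48 samples. The change in LPLE was -0.0015 (at least 10 counts in every sample) and -0.19 (replicate block) for GSTT3, and 0.041 (replicate block) and 0.29 (without muscle-marker libraries) for MGST1. Correlations between the sampling times were 0.055 for MGST1 and 0.12 for MGST3 as deviations from diet and genetic group means. Leaving out 1 heifer moved HMY-LCM at 12 months from -0.10 to 0.13 for MGST1 and from -0.037 to 0.10 for MGST3, and in gestation LPHE-LPLE from -0.17 to 0.062 for MGST3, HPHE-HPLE from -0.11 to 0.17 for GSTM1 and HMY-LCM from -0.087 to 0.11 for GSTT1. Causes were not tested.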
